A study of Mus musculus with 16 samples.

Results

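The genes described here are the neighbours of Apc on mouse chromosome 18. They were taken by position alone: every gene of the deposited table whose locus overlaps 18:19207775-49322190 in the mm10 genome, which is 15 Mb on each side of the Apc locus, and whose mean level over the 16 libraries was at least 0.5 FPKM (fragments mapped to a gene, scaled to transcript length and to the mapped fragments of the library). Of the 262 genes in this window, 65 were below that level and 62, Apc among them, were set aside by name and are not analysed here. The remaining 135 are the flanking genes, 0.966% of the 13978 genes tested. The weakest genes taken were Dsg2 at 0.541 FPKM, A930012L18Rik at 0.562 FPKM and Gpr151 at 0.606 FPKM, and the strongest left below the level were Sh3rf2 at 0.478 FPKM, Kif20a at 0.460 FPKM and Gm5820 at 0.442 FPKM.

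RNA came from 16 samples of freshly dissected prefrontal cortex, 4 of each genotype, and the mice of the study were of both sexes and 2 to 3 months old. APC cKO mice carry APC fl/fl, β-cat cOE mice carry ctnnb1 fl(ex3)/+, which gives a stabilised β-catenin (β-cat), and APC/β-cat cKO mice carry APC fl/fl and ctnnb1 fl/fl. All 3 lines carry the same CamKIIα-Cre-93 driver, which acts mainly in excitatory neurons of the forebrain, so that the other cells of the tissue keep both genes. Controls were Cre-negative littermates pooled from all lines. They may carry floxed alleles, and the labels do not say which allele a control carried or which line it came from. APC cKO and APC/β-cat cKO libraries are called APC-deleted below, and the libraries of control and β-cat cOE mice APC-intact.

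APC is a scaffold of the complex that marks β-cat for destruction, and it also binds microtubule ends. The stretch of chromosome around a targeted allele is inherited together with it, so the genes beside a targeted locus are commonly read along with it. The genes on both sides of Apc are unrelated in function: they include tRNA synthetases, RNA-binding proteins, vesicle and mitochondrial proteins, kinases and synaptic proteins.

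Of the 135 flanking genes, 126 are protein coding in RefSeq, 7 are lncRNA genes, 1 is a snoRNA gene and 1 a transcribed pseudogene. On the chromosome, 49 lie at lower coordinates than Apc, 85 at higher coordinates, and 1, Gm10548, overlaps it. Gaps were measured from the Apc locus of the deposited values, 18:34207775-34322190, which also holds Gm10548. In the GENCODE M21 annotation the Apc gene itself spans 18:34220924-34322552, so gaps at lower coordinates are understated. The gap is under 1 Mb for 19 genes, 1 to 5 Mb for 61 and 5 to 15 Mb for 55. Stard4, at 994 kb and lower coordinates, is close to the 1 Mb mark. Their median level was 13.7 FPKM, beside 10.01 FPKM for all genes tested, and 81 of them were at 10 FPKM or more (60.0%, against 50.0% of all genes tested). Ndfip1, an adaptor of Nedd4-family ubiquitin ligases, had the highest level, with a mean of 617 FPKM. It was followed by Ndufa2, a subunit of respiratory complex I, at 190 FPKM, Reep5, a shaper of the endoplasmic reticulum, at 183 FPKM, Rnf14, a ubiquitin ligase, at 174 FPKM, and Matr3, a nuclear matrix RNA-binding protein, at 165 FPKM.

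Values of these genes repeated closely between libraries of a group. The SD within a group, on log2(FPKM + 0.1), had a median of 0.119 over the flanking genes and 0.146 over all genes tested. It was under 0.2 for 100 of the 135 (74.1%, against 68.2% of all genes tested) and over 1 for 4: Gm5506, Ttr, the snoRNA gene Snora74a and the lncRNA gene Gm4013. Of these, Snora74a and Gm4013 were listed at 0 in some libraries, as was Gm10548. Library depth is not known, since the values carry no fragment counts, and 5726 to 6649 genes were listed at 0 per library. By sex-linked genes, control replicate 1 and APC cKO replicate 1 were female and the other 14 libraries male. The 5 markers of excitatory neurons summed to between 1067 and 1376 FPKM over all libraries. Other lists varied more: 6 striatal markers summed to 58.5 to 375 FPKM, and 5 ependymal markers to 4.065 to 35.4 FPKM. Within the controls the striatal sum ran from 67.7 to 281 FPKM. Whether this bears on the flanking genes was not tested. In bulk tissue, fewer cells of a type and less RNA per cell cannot be told apart.

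Apc itself was at 43.2, 40.8, 41.6 and 50.1 FPKM in the 4 controls and at 48.1, 49.5, 41.7 and 38.8 FPKM in β-cat cOEs. Its values were 17.1, 10.8, 7.85 and 10.9 FPKM in APC cKOs and at 10.5, 12.2, 10.6 and 6.80 FPKM in APC/β-cat cKOs. Every APC-deleted library was below every APC-intact one. The log2 difference between the lines with and without the deletion was −2.06 (standard error 0.14, limma adjusted p = 8.96e-07). The deleted exons are a small part of the transcript, and the gene value does not show which exons a transcript holds.

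No flanking gene passed an adjusted p under 0.05 between APC-deleted and APC-intact libraries: 0 of 135, where limma called 0.386% of all genes tested. The smallest adjusted p was 0.0661, that of Gm10548. At an unadjusted p under 0.05 there were 23 genes (17.0%, against 13.3% of all genes tested), 10 higher (7.03% of all genes tested) and 13 lower (6.25%) in APC-deleted libraries. Among the 10, Gm10548 and A930012L18Rik reached 0.5 FPKM only through the APC-deleted libraries, so their part in these counts is a description. The same holds for the filter of Dsg2, which is not among the 23. The median log2 difference of the 135 genes was −0.01 and their quartiles were −0.08 and 0.03. All genes tested had a median of 0.0002 and quartiles of −0.07 and 0.07. The groups of 8 libraries were apart for 0 flanking genes, and for 0.143% of all genes tested. The count of called flanking genes became 1 with a pseudocount of 1, 2 without control replicate 1 and 1 without β-cat cOE replicate 3.

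The intervals show how large a difference these 16 libraries leave room for. The 95% interval of the log2 difference lay within −0.5 and 0.5 for 121 of the 135 flanking genes (89.6%, against 86.2% of all genes tested) and within −1 and 1 for 129. Among the 19 genes within 1 Mb of the Apc locus it lay within −0.5 and 0.5 for 17, and 1 of these 19, Gm10548, had an unadjusted p under 0.05. That count was 11 of 61 at 1 to 5 Mb and 11 of 55 at 5 to 15 Mb, where 13.3% of all genes tested reached it. The median log2 difference was −0.0038 under 1 Mb, −0.0016 at 1 to 5 Mb and −0.04 at 5 to 15 Mb. On the side of lower coordinates the median was −0.04, with 12 of 49 genes higher in APC-deleted libraries, and on the side of higher coordinates −0.0016, with 41 of 85 higher. Of all genes tested, 6995 of 13978 were higher, with a median of 0.0002. On chromosome 18 outside the window, 83 of 201 were higher, with a median of −0.03. The sides and distances were not tested against each other.

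**Figure D1:**
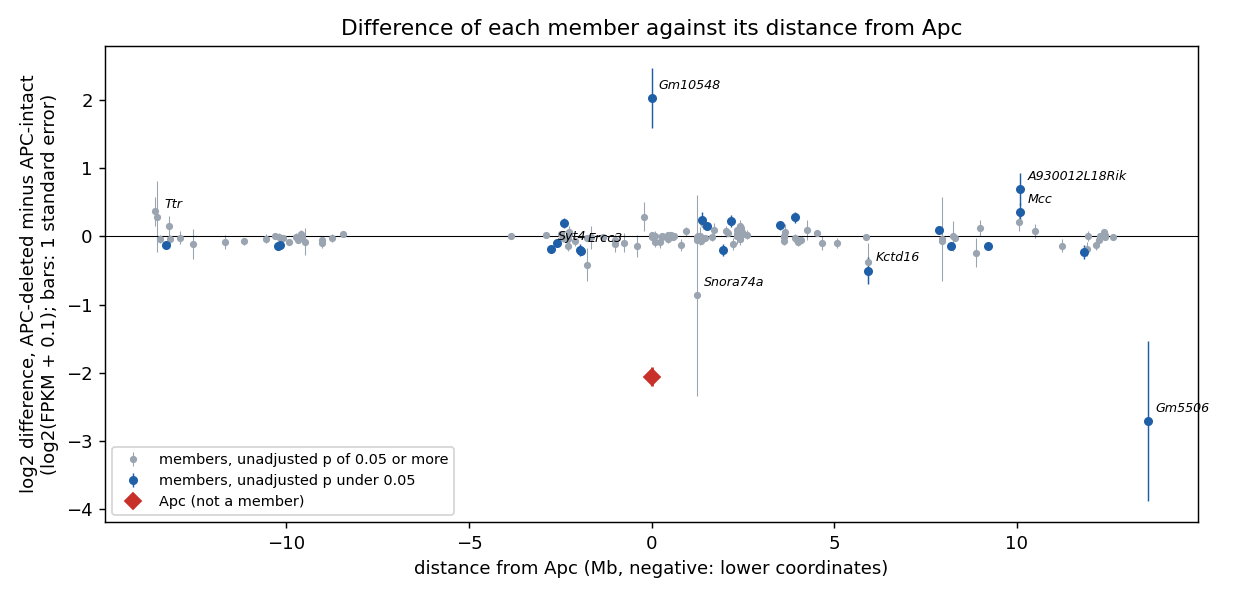
Log2 difference of each of the 135 flanking genes (y axis, log2(FPKM + 0.1), APC-deleted minus APC-intact, bars 1 standard error, 8 libraries against 8) against the distance between its locus and Apc (x axis, Mb, negative at lower coordinates), with Apc as a red diamond. Apc lies at −2.06, and 5 flanking genes lie more than 0.5 from 0: Gm10548 at 2.03, A930012L18Rik at 0.69, Snora74a at −0.87, Gm5506 at −2.70 and Kctd16 at −0.50.

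Srp19, a protein of the signal recognition particle, and Reep5 lie nearest to Apc among the genes that do not overlap it, 8.96 kb and 22.7 kb away at higher coordinates. Srp19 was at 55.9, 61.3, 58.8 and 56.1 FPKM in controls, 57.2, 58.8, 56.8 and 60.6 FPKM in β-cat cOE mice, 52.7, 56.2, 54.9 and 58.3 FPKM in APC cKOs, and 59.1, 64.2, 58.5 and 70.4 FPKM in APC/β-cat cKOs. The log2 difference between APC-deleted and APC-intact libraries was 0.02 (95% interval −0.06 to 0.11, limma adjusted p = 0.842). The 4 groups overlapped, except that the 4 APC cKO libraries were all below the 4 APC/β-cat cKO libraries.

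Reep5 was at 191, 187, 177 and 193 FPKM in controls, 165, 191, 187 and 180 FPKM in β-cat cOE mice, 174, 184, 181 and 177 FPKM in APC cKOs, and 190, 175, 183 and 199.9 FPKM in APC/β-cat cKOs. Its log2 difference was −0.01 (95% interval −0.09 to 0.07). All 4 groups overlapped. Fam13b, a RhoGAP-domain protein, and Pkd2l2, a polycystin-like channel, share 1 locus of the deposited values, 87.2 kb from Apc, and reads could be split between them. Their log2 differences were −0.09 (95% interval −0.23 to 0.05) and 0.01 (−0.15 to 0.17). Nme5, a nucleoside diphosphate kinase family member, was 240.5 kb away, with a log2 difference of −0.08 (−0.27 to 0.10).

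On the side of lower coordinates the nearest gene was Epb4.1l4a, a band 4.1 family protein that links membranes to the cytoskeleton, 200.6 kb away. It was at 0.904, 0.799, 1.504 and 1.12 FPKM in controls, 2.18, 0.972, 1.36 and 1.09 FPKM in β-cat cOE mice, 2.77, 1.09, 1.34 and 1.36 FPKM in APC cKOs, and 0.993, 2.24, 1.24 and 1.41 FPKM in APC/β-cat cKOs. A single library stood above the other 3 in each of the 3 lines, and its log2 difference of 0.29 had an interval of −0.17 to 0.75. Next to it lies the lncRNA gene 2410004N09Rik (Epb41l4aos), whose log2 difference was −0.14 (−0.48 to 0.21). D0H4S114 (Nrep), a neuronal regeneration protein 743.7 kb away, had −0.09 (−0.38 to 0.20), and Stard4, a sterol carrier, −0.05 (−0.24 to 0.13).

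Camk4, the calcium and calmodulin dependent kinase of neurons, lies 1.01 Mb from Apc. It was at 25.6, 22.7, 18.2 and 27.6 FPKM in controls, 17.8, 18.8, 22.4 and 18.02 FPKM in β-cat cOE mice, 15.6, 23.2, 19.4 and 19.3 FPKM in APC cKOs, and 24.5, 15.6, 20.6 and 19.1 FPKM in APC/β-cat cKOs. Control libraries held the 2 highest values and all 4 groups overlapped. Between APC-deleted and APC-intact libraries the log2 difference was −0.12 (95% interval −0.34 to 0.11, limma adjusted p = 0.642).

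**Figure D2:**
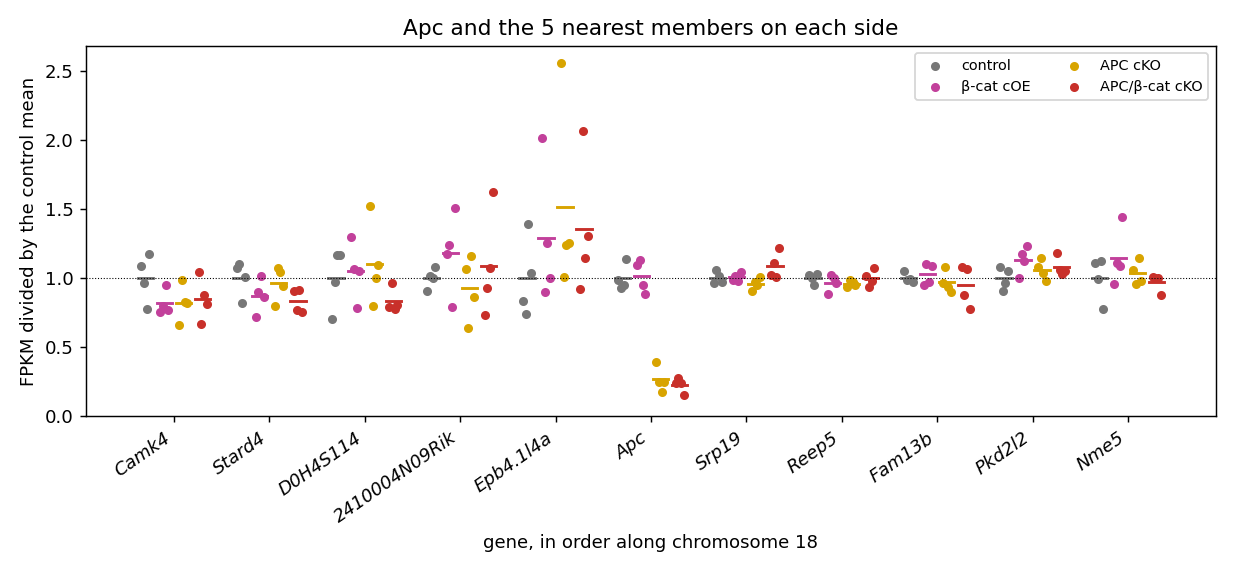
Level of Apc and of the 5 nearest flanking genes on each side of it, in order along chromosome 18 (x axis), as FPKM divided by the mean of the 4 controls (y axis, starting at 0); each point is 1 library, the short lines are group means (n = 4) and the dotted line is the control mean. Apc is at 17.1 FPKM or less in every APC cKO and APC/β-cat cKO library against 38.8 FPKM or more in the others, while the groups of its 10 neighbours overlap between APC-deleted and APC-intact libraries.

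Gm10548 is the flanking gene with the smallest adjusted p, and it is the one that overlaps Apc. It is singled out here after its values were seen. In GENCODE M21 (mm10) it is a transcribed processed pseudogene on the minus strand at 18:34207775-34221772, while Apc is on the plus strand at 18:34220924-34322552. Its first exon, at 18:34221483-34221772, lies in the Apc gene but shares 0 bases with Apc exons, so it is antisense within an intron, and its second exon, at 18:34207775-34210113, lies outside Apc. The table gives both genes 1 locus. The library kit marks strand, but whether the authors counted by strand is not given in the sources used here, so reads of Gm10548 and of unspliced Apc RNA may not be separated.

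Gm10548 was at 0.794, 0.0202, 0.0795 and 0.638 FPKM in controls and was listed at 0.173, 0, 0.586 and 0.0241 FPKM in β-cat cOEs. It was at 0.945, 0.911, 1.06 and 0.927 FPKM in APC cKOs and at 1.29, 1.27, 1.29 and 0.661 FPKM in APC/β-cat cKOs. The APC cKO libraries were all above the 8 APC-intact libraries, and 3 of the 4 APC/β-cat cKO libraries were too, the fourth lying below control replicate 1. The difference on the log2 scale was 2.03 (standard error 0.45, 95% interval 1.08 to 2.98, limma adjusted p = 0.0661), which did not pass. It passed with a pseudocount of 1 (log2 difference 0.70, adjusted p = 0.0315), without control replicate 1 (2.26, adjusted p = 0.0179) and without β-cat cOE replicate 3 (2.30, adjusted p = 0.0293). At levels this low the size depends on the pseudocount. The mean of Gm10548 was 0.290 FPKM over the APC-intact and 1.04 FPKM over the APC-deleted libraries, so it reached the 0.5 FPKM needed to be tested only through the group where it was high. Its difference and its calls are therefore a description.

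Against controls alone the log2 difference of Gm10548 was 1.62 in the APC cKO line (adjusted p = 0.418) and 1.79 in the double line (adjusted p = 0.278). These comparisons share the 4 control libraries.

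Ercc3, the XPB helicase of the transcription and repair factor TFIIH, had the next smallest adjusted p. It lies 1.94 Mb from Apc at lower coordinates. Its values were 12.4, 15.8, 15.04 and 14.5 FPKM in controls, 15.1, 15.3, 13.3 and 16.3 FPKM in β-cat cOE mice, 13.02, 12.3, 13.01 and 12.7 FPKM in APC cKOs, and 13.3, 12.8, 12.1 and 11.7 FPKM in APC/β-cat cKOs. The 8 APC-deleted libraries spanned 11.7 to 13.3 FPKM, and of the APC-intact ones only control replicate 1 and β-cat cOE replicate 3 reached into that range. The log2 difference was −0.22 (standard error 0.05, limma adjusted p = 0.103), and without control replicate 1, −0.25 (adjusted p = 0.0181).

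Syt4, a synaptotagmin of dense-core vesicles in neurons, was at 86.4, 91.5, 91.9 and 104 FPKM in controls and at 79.9, 85.0, 100.995 and 91.4 FPKM in β-cat cOEs. It was at 73.0, 87.1, 78.4 and 80.2 FPKM in APC cKOs and at 86.1, 75.1, 81.2 and 79.1 FPKM in APC/β-cat cKOs. The ranges overlapped between 79.9 and 87.1 FPKM. The difference on the log2 scale was −0.19 (standard error 0.05, limma adjusted p = 0.160).

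The genes with the largest positive differences at an unadjusted p under 0.05 and a mean of at least 1 FPKM were Mcc, 1700086O06Rik, Ecscr, Hbegf and Polr2d. Mcc, named for its mutation in colorectal cancers, was at 2.16, 1.51, 1.20 and 1.65 FPKM in controls, 1.15, 1.18, 1.64 and 1.44 FPKM in β-cat cOE mice, 1.86, 2.26, 1.69 and 1.97 FPKM in APC cKOs, and 1.97, 1.99, 2.21 and 1.47 FPKM in APC/β-cat cKOs. Its log2 difference was 0.36 (standard error 0.12, limma adjusted p = 0.247). The APC-deleted and APC-intact libraries overlapped between 1.47 and 2.16 FPKM. The lncRNA gene A930012L18Rik, named here after its values were seen, shares the Mcc locus in the table and had a log2 difference of 0.69 (standard error 0.24, adjusted p = 0.251), at 0.433 to 1.02 FPKM in APC-deleted and 0.176 to 0.905 FPKM in APC-intact libraries. It too reached 0.5 FPKM only through the APC-deleted libraries (mean 0.703 FPKM, against 0.421 FPKM), so its difference is a description. Reads of this pair could be split between them.

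The lncRNA gene 1700086O06Rik was at 4.08, 4.71, 4.56 and 3.03 FPKM in controls, 5.36, 5.12, 4.56 and 4.80 FPKM in β-cat cOE mice, 5.33, 5.73, 5.43 and 5.30 FPKM in APC cKOs, and 4.79, 5.27, 5.73 and 6.13 FPKM in APC/β-cat cKOs. Controls were the lowest group by mean, and β-cat cOE replicate 3 lay within their range. The log2 difference between APC-deleted and APC-intact libraries was 0.28 (standard error 0.08, limma adjusted p = 0.180). It shares its locus with 0610009O20Rik (Dele1), and reads could be split between them.

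Polr2d, a subunit of RNA polymerase II, was at 17.6, 17.1, 19.1 and 14.4 FPKM in controls, 20.96, 19.4, 19.1 and 19.98 FPKM in β-cat cOE mice, 19.3, 20.3, 19.9 and 22.02 FPKM in APC cKOs, and 18.3, 23.6, 20.4 and 25.5 FPKM in APC/β-cat cKOs. As with 1700086O06Rik, control replicate 4 was the lowest of the 16 libraries and an unadjusted p under 0.05 was reached in all 3 lines against control, comparisons that share the controls. The log2 difference of Polr2d from control was 0.36 in the double line (adjusted p = 0.191), 0.26 in APC cKOs (adjusted p = 0.386) and 0.22 in β-cat cOEs (adjusted p = 0.946).

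Hbegf, a growth factor of the EGF family, had a log2 difference of 0.23 (standard error 0.09, limma adjusted p = 0.329), at 4.26 to 5.98 FPKM in APC-deleted and 3.79 to 6.14 FPKM in APC-intact libraries. Ecscr, a surface protein of endothelial cells, had 0.24 (standard error 0.11, adjusted p = 0.360), at 1.85 to 2.98 and 1.51 to 2.74 FPKM. Of 5 endothelial markers, 0 were higher and 3 lower at an unadjusted p under 0.05 in the same comparison, and their sum was 67.4 to 78.5 FPKM in controls, 70.4 to 75.9 in β-cat cOEs, 49.9 to 65.1 in APC cKOs and 66.0 to 83.8 in APC/β-cat cKOs. Their part in the value of Ecscr was not tested.

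The largest negative differences by the same rule were those of Gm5506, Kctd16, Trim36, Ercc3 and Map3k2. Kctd16, an auxiliary subunit of GABA-B receptors, was at 9.48, 8.58, 6.95 and 8.09 FPKM in controls, 6.49, 8.28, 9.68 and 6.08 FPKM in β-cat cOE mice, 5.07, 7.62, 6.30 and 6.64 FPKM in APC cKOs, and 8.65, 2.77, 6.61 and 3.34 FPKM in APC/β-cat cKOs. APC/β-cat cKO replicates 2 and 4 were the lowest of all libraries, and replicate 1 was within the control range. The log2 difference was −0.50 (standard error 0.20, limma adjusted p = 0.311). 2900055J20Rik, named after its values were seen, has its own row in the table, but RefSeq lists the name as a synonym of Kctd16. It was at 9.69, 3.17, 7.06 and 1.73 FPKM in the same 4 APC/β-cat cKO libraries, so the same 2 libraries were low for it.

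Trim36, a ubiquitin ligase, was at 1.30 to 1.82 FPKM in APC-deleted and 1.29 to 2.103 FPKM in APC-intact libraries, a log2 difference of −0.23 (standard error 0.10, limma adjusted p = 0.349). Map3k2, a kinase upstream of MAP kinases, was at 1.96 to 3.33 and 2.91 to 3.91 FPKM, a log2 difference of −0.20 (standard error 0.09, adjusted p = 0.345). For both genes the groups overlapped.

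**Figure D3:**
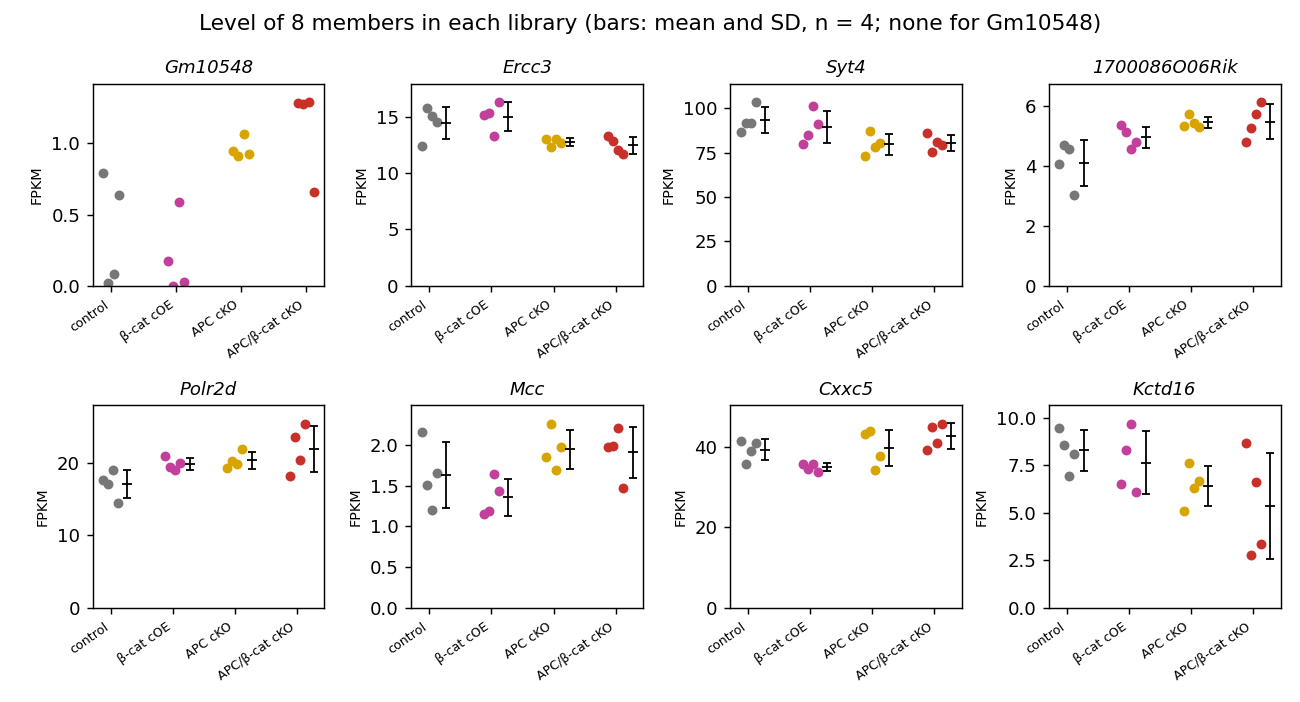
Level of 8 flanking genes in each library (y axis, FPKM, starting at 0; x axis, the 4 genotypes), 1 point per library, with the mean and SD (n = 4) beside the points except for Gm10548, which has a value listed at 0. For Ercc3 the 8 APC-deleted libraries lie between 11.7 and 13.3 FPKM, and for Gm10548 7 of the 8 lie above all APC-intact libraries.

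Gm5506 had the largest difference in size among the flanking genes, with a wide error. RefSeq names it Eno1b; it is a copy of Eno1, the enolase of glycolysis. It was at 28.6, 60.2, 41.2 and 25.6 FPKM in controls, 59.9, 73.4, 29.7 and 42.9 FPKM in β-cat cOE mice, 30.2, 0.198, 29.7 and 0.319 FPKM in APC cKOs, and 56.7, 0.165, 57.2 and 32.8 FPKM in APC/β-cat cKOs. In 3 libraries, APC cKO replicates 2 and 4 and APC/β-cat cKO replicate 2, it was almost absent. The difference on the log2 scale was −2.70 (standard error 1.17, limma adjusted p = 0.347).

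Those 3 libraries had the highest values of Eno1 of all 16, at 430, 440 and 470 FPKM, against 284 to 379 FPKM in the other 13. The sum of Eno1 and Gm5506 in them was 430, 440 and 470 FPKM, against 341 to 412 FPKM in the others. Reads that match both copies can be given to either of them, so the level of Gm5506 is uncertain. How reads were shared between them was not tested.

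**Figure D4:**
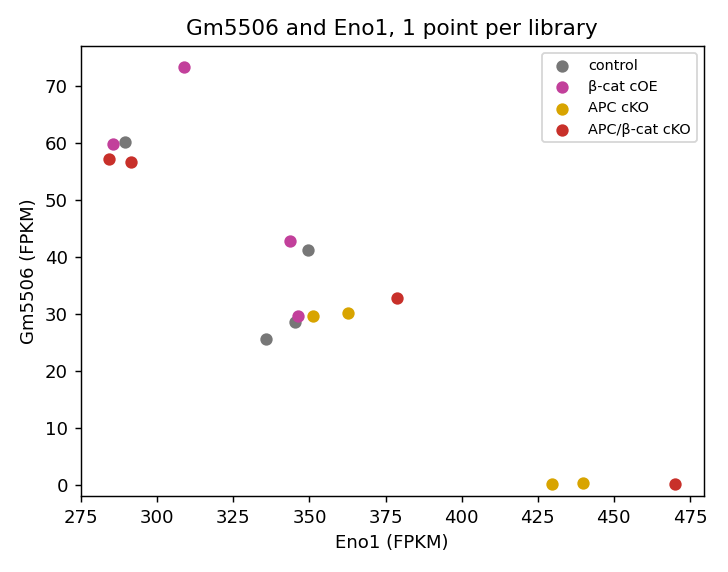
Gm5506 (y axis, FPKM) against Eno1 (x axis, FPKM, not starting at 0), 1 point per library, coloured by genotype. The 2 APC cKO libraries and 1 APC/β-cat cKO library with Gm5506 at 0.165 to 0.319 FPKM are the 3 with the highest Eno1.

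By role, part of the flanking genes were grouped in 8 lists, which share some genes. Others, among them Gm10548, Gm5506 and 1700086O06Rik, are in no list. In each list 0 genes passed the adjusted threshold in the comparison of APC-deleted with APC-intact libraries. The counts below are at an unadjusted p under 0.05, which 13.3% of all genes tested reached, 7.03% higher and 6.25% lower. For translation and RNA handling, 3 of 21 genes had an unadjusted p under 0.05, 2 higher, Polr2d and Lars, and 1 lower, and the median log2 difference was −0.0026. Lars, the cytosolic leucyl-tRNA synthetase, is named after its values were seen, with a log2 difference of 0.10 (limma adjusted p = 0.326). For chromatin and transcription it was 5 of 16, 1 higher and 4 lower, with a median of −0.03. Beside Ercc3, the lower genes were the zinc finger genes Zfp191 and Zfp397 and Pura, which binds single-stranded purine-rich DNA and RNA, and the higher one was Cxxc5. Zfp191, Zfp397 and Pura are named after their values were seen.

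For neuronal signalling and synapse, 3 of 19 were lower at an unadjusted p under 0.05, 0 were higher and the median was −0.04. These were Syt4, Kctd16 and Jakmip2, which is named after its values were seen and was at −0.13 (limma adjusted p = 0.319). In vesicles, autophagy and the secretory pathway, 1 of 16 was lower by the same threshold, Trappc8, a subunit of a complex that tethers vesicles, at −0.12 (adjusted p = 0.351), and the median was −0.01. Of 4 mitochondrial genes 1 passed it, Slc25a46, a carrier-family protein of the outer membrane, at −0.10 (adjusted p = 0.319). Of 9 genes of cytoskeleton and adhesion, Diap1 was the single one at an unadjusted p under 0.05, higher in APC-deleted libraries. Of 7 genes of ubiquitin and protein turnover it was Trim36, which was lower.

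The last list holds 5 flanking genes whose proteins are linked to APC or β-cat in the literature. At an unadjusted p under 0.05, 3 of the 5 were higher in APC-deleted libraries, Mcc, Cxxc5 and Diap1 (7.03% of all genes tested), and 0 were lower (6.25%), with a median log2 difference of 0.15. Against controls alone, 0 of the 5 reached that threshold in APC cKOs (10.02% of all genes tested), with a median of 0.01. In APC/β-cat cKOs it was also 0 (14.2%), with a median of 0.09. Against β-cat cOEs, 3 of the 5 were higher in APC cKOs (3.63%) and 0 lower (3.93%). Diap1 is the formin mDia1, which acts with APC on microtubules. It was at 12.7, 11.04, 10.6 and 11.3 FPKM in controls, 9.53, 11.1, 11.5 and 10.5 FPKM in β-cat cOE mice, 10.8, 12.9, 13.5 and 13.1 FPKM in APC cKOs, and 14.2, 11.3, 12.4 and 11.1 FPKM in APC/β-cat cKOs. The log2 difference was 0.17 (standard error 0.07, limma adjusted p = 0.319), and the groups overlapped.

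Cxxc5, a zinc finger protein that binds Dishevelled and dampens Wnt signalling, was at 41.4, 35.8, 39.02 and 41.1 FPKM in controls, 35.9, 34.4, 35.8 and 33.8 FPKM in β-cat cOE mice, 43.2, 43.9, 34.3 and 37.7 FPKM in APC cKOs, and 39.2, 44.97, 41.1 and 45.8 FPKM in APC/β-cat cKOs. The β-cat cOE libraries were at the low end. The log2 difference between APC-deleted and APC-intact libraries was 0.15 (standard error 0.05, limma adjusted p = 0.281). The other two genes of the list are Mapre2, an end-binding protein of microtubules, and Ppp2r2b, a neuronal subunit of phosphatase PP2A. Their log2 differences were −0.0005 (95% interval −0.07 to 0.07) and −0.02 (−0.12 to 0.08).

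Each line was then set against the pooled controls. In APC cKOs, 0 of 135 flanking genes were called by limma, where 0.0429% of all genes tested were, and 10 had an unadjusted p under 0.05 (7.41%, against 10.02% of all genes tested), 4 higher (4.82% of all genes tested) and 6 lower (5.19%). The 4 APC cKO libraries were apart from the 4 controls for 8 flanking genes and for 5.47% of all genes tested. Gm10548 is among the 4 higher and among the 8. It reached 0.5 FPKM only through the APC-deleted libraries, so its part in these counts is a description. The median log2 difference was −0.02 and the smallest adjusted p was 0.310, that of 1700086O06Rik.

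In APC/β-cat cKOs, 0 of 135 were called by limma, where 0.207% of all genes tested were, and 23 had an unadjusted p under 0.05 (17.0%, against 14.2%), 9 higher (7.17%) and 14 lower (7.03%). Gm10548 is among the 9 higher, and for genes that passed the filter only through APC-deleted libraries the count is a description. The groups were apart for 5 flanking genes and for 5.21% of all genes tested. The smallest adjusted p was 0.191, that of Polr2d, and the median log2 difference was −0.03. In β-cat cOEs, where Apc is intact and on this chromosome no gene is targeted, 0 of 135 were called, where 0.0143% of all genes tested were, and 4 had an unadjusted p under 0.05 (2.96%, against 5.07%), 3 higher (2.30%) and 1 lower (2.77%). The groups were apart for 2 flanking genes and for 3.08% of all genes tested, and the median log2 difference was −0.01. These 3 comparisons share the 4 controls.

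The 2 comparisons between lines gave the same count. Between APC cKOs and β-cat cOEs, 0 of 135 flanking genes were called by limma, where 0.0429% of all genes tested were. At an unadjusted p under 0.05 there were 14 (10.4%, against 7.57%), 5 higher (3.63%) and 9 lower (3.93%), and the groups were apart for 5 (all genes tested 5.20%). The smallest adjusted p was 0.325, that of Gm10548. This gene reached 0.5 FPKM only through the APC-deleted libraries, so its part here is a description. Deviations of libraries of these 2 groups correlated at 0.11 to 0.32 where the number in the title was the same. Where it differed, they correlated at −0.28 to 0.17, so the ranges overlapped. With that number as a replicate block 0 flanking genes were called and 7 had an unadjusted p under 0.05. APC cKO replicate 4 has a number that no other library carries. In the order of the column headers it stands beside replicate 3 of the other genotypes. Its deviations correlated at 0.14 with those of β-cat cOE replicate 3, a pair counted here as different numbers. A block on the header order was not run. Between APC cKOs and APC/β-cat cKOs, which share the deletion of Apc, 0 of 135 were called, where 0.215% of all genes tested were. At an unadjusted p under 0.05 there were 14 (10.4%, against 10.3%), 4 higher (4.15%) and 10 lower (6.13%) in APC cKOs, and the groups were apart for 8 (all genes tested 5.49%).

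Between those 2 deleted lines, Bin1, a membrane-bending protein abundant in oligodendrocytes and neurons, was at 79.0, 72.9, 73.7 and 73.4 FPKM in APC cKOs and at 79.2, 91.5, 82.2 and 88.4 FPKM in APC/β-cat cKOs. The groups did not overlap, by the narrow gap between 79.0 and 79.2 FPKM. The difference on the log2 scale was −0.19 (standard error 0.06, limma adjusted p = 0.292). All 5 oligodendrocyte markers were lower in APC cKOs at an unadjusted p under 0.05 in the same comparison, and their sum was 562 to 677 FPKM in APC cKOs, 835 to 936 FPKM in APC/β-cat cKOs and 647 to 1004 FPKM in controls. Their part in the value of Bin1 was not tested.

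Fchsd1, an adaptor of actin dynamics, had the smallest adjusted p between the 2 deleted lines and is named after its values were seen, as are its neighbours Rell2 and Arap3. It was at 9.37, 10.4, 10.3 and 10.4 FPKM in APC cKOs and at 10.8 to 14.1 FPKM in APC/β-cat cKOs, groups that did not overlap. The difference was −0.27 on the log2 scale (standard error 0.07, limma adjusted p = 0.197). Rell2, a RELT family protein that shares the Fchsd1 locus, differed by −0.24 (adjusted p = 0.292), and Arap3, a GTPase activator 3.65 Mb from Apc, by −0.50 (adjusted p = 0.292).

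Dpysl3, which guides axon growth, is named after its values were seen. It was at 16.7, 13.3, 13.5 and 17.8 FPKM in APC cKOs, 10.2, 12.1, 11.8 and 9.66 FPKM in controls, 13.6, 11.7, 12.1 and 11.96 FPKM in β-cat cOEs, and 13.4, 11.8, 11.2 and 6.68 FPKM in APC/β-cat cKOs. The 4 APC cKO libraries were all above the 4 controls. The log2 difference was 0.48 against controls (standard error 0.17, limma adjusted p = 0.365) and 0.54 against APC/β-cat cKOs (adjusted p = 0.274).

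Ttr encodes transthyretin, which the choroid plexus makes in large amounts, and it lies in the window 13.5 Mb from Apc. It was at 2.56, 1.82, 1.19 and 1.38 FPKM in controls, 1.45, 1.08, 0.657 and 0.346 FPKM in β-cat cOE mice, 1.87, 0.387, 0.591 and 5.89 FPKM in APC cKOs, and 0.438, 4.21, 0.876 and 3.17 FPKM in APC/β-cat cKOs. The 4 groups overlapped, and the log2 difference of 0.29 had an interval of −0.82 to 1.39. Other genes of the choroid plexus, Folr1 and Clic6, spanned 0.0501 to 0.915 FPKM and 0.163 to 4.61 FPKM, and Clic6 was highest in APC cKO replicate 3, where Ttr was at 0.591 FPKM. Snora74a and its host gene Snhg4 are named after their values were seen. Snora74a was listed at 2.85, 2.54, 4.99 and 1.63 FPKM in controls, 0, 0, 0 and 58.9 FPKM in β-cat cOE mice, 40.0, 0, 0 and 1.51 FPKM in APC cKOs, and 0, 0, 1.53 and 3.07 FPKM in APC/β-cat cKOs, while Snhg4 stayed between 7.76 and 11.4 FPKM.

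The genes around Ctnnb1, taken by the same width and level on chromosome 9, give the flank of the other targeted gene. Of its 205 genes, 4 were called between APC-deleted and APC-intact libraries (0.386% of all genes tested were), with a median log2 difference of 0.01. Among the Cre lines only APC/β-cat cKOs carry ctnnb1 fl/fl, and β-cat cOEs carry ctnnb1 fl(ex3)/+, so this comparison mixes Ctnnb1 genotypes. In APC/β-cat cKOs, 5 of the 205 were called against controls (0.207% of all genes tested) and 6 against APC cKOs (0.215%). In APC cKOs 0 were called against controls or against β-cat cOEs (0.0429% each), and in β-cat cOEs 0 against controls (0.0143%). Of the other 201 tested genes of chromosome 18, outside the window around Apc, 2 were called between APC-deleted and APC-intact libraries and the median was −0.03. The counts of the 3 sets were not tested against each other.

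**Figure D5:**
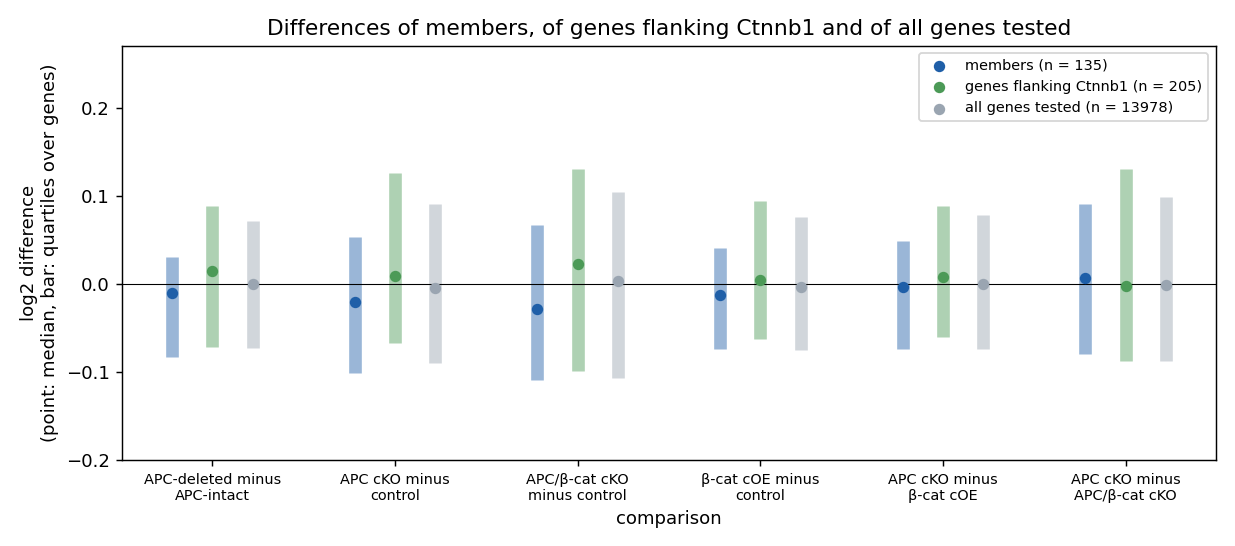
Median (points) and quartiles (bars) of the log2 difference over genes (y axis) in 6 comparisons (x axis), for the 135 flanking genes of Apc (blue), 205 genes flanking Ctnnb1 (green) and all 13978 genes tested (grey). The medians of the flanking genes of Apc lie between −0.03 and 0.01.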

How the data were processed

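Per the labels and the study's methods, the authors prepared stranded poly(A) libraries from 16 prefrontal cortex samples, mapped paired-end reads with TopHat2 2.0.10 to mm10 and made expression values with the Cufflinks suite (Cuffdiff 2.1.1). The deposited table holds log2 values, 1 column per library. They were planned for as FPKM; their form, log2(FPKM + 1), was inferred from their sums over 20887 genes with a GENCODE length (FPKM times kilobases summed to 962144 to 1022988 per library, and to 8146608 or more if read as natural logs), and they were turned back into FPKM. No fragment counts were given, so depth is unknown and no counting intervals were computed.

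The 13978 genes whose mean reached 0.5 FPKM were tested on log2(FPKM + 0.1) with limma 3.58.1 (R 4.3.3; lmFit, contrasts.fit, eBayes with trend) in 1 model of 4 genotypes with 12 residual degrees of freedom. P-values were adjusted by Benjamini-Hochberg over all genes tested and called under 0.05. Fold changes on this scale understate those of low genes. The labels do not tie each library to an animal, so p-values measure the spread between these samples. On simulated data for APC-deleted against APC-intact libraries (13978 genes), 99 of 100 genes changed by 1 and 100 of 100 changed by 2 on the log2 scale were called, with 6 calls among 13778 unchanged genes.

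The flanking genes, role lists and marker lists were chosen with earlier results of these data known. Genes were named by rule: the 5 nearest on each side of Apc, the 5 highest levels, the 5 largest differences each way at an unadjusted p under 0.05 and 1 FPKM between APC-deleted and APC-intact libraries, 4 per role list (2 highest, 2 with the largest moderated t), Camk4 and Ttr; other genes whose differences are given are marked as named after their values were seen. Alternatives were a pseudocount of 1, median-of-ratios or quantile scaling, no filter or a mean of 2 FPKM, a fit without trend, inferred sex as a covariate, a block on the number in the sample title, only the groups compared, an adjusted p under 0.01 and leaving out each library. Deviations of libraries with the same title number correlated at 0.11 to 0.32 in the 3 pairs of β-cat cOE and APC cKO libraries, each over 0.1, so the number was taken to pair these 2 groups, although the labels do not say what it marks. Pairs of these 2 groups with different numbers correlated at −0.28 to 0.17, which overlaps that range. For every other pair of groups at least 1 correlation between libraries of the same number was under 0.1. Plots were drawn with matplotlib 3.10.9, and tables made with pandas 2.3.3 in Python 3.11.15. Values of some genes are not reported here.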

Additional observations from a re-analysis of the deposited data

Results flagged for a closer look

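In 200 groups of 4 libraries (Apc, Ctnnb1 and 48 named flanking genes, each in 4 genotypes), 12 held 1 library that stood apart from its group by the 95% critical value of Dixon's ratio, the gap to the nearest library divided by the range of the group, where chance gives about 10. In APC/β-cat cKOs, replicate 4 was apart for Ap3s1 (ratio 0.953, 62.0 FPKM against 51.3 to 51.8), Nme5 (0.916, 11.8 FPKM against 13.5 to 13.6) and Gm10548 (0.972, 0.661 FPKM against 1.27 to 1.29). Replicate 2 of that line was apart for D0H4S114 (0.845, 37.3 FPKM against 30.1 to 31.2). In APC cKOs, replicate 1 was apart for Bin1 (0.876, 79.0 FPKM against 72.9 to 73.7), Epb4.1l4a (0.842, 2.77 FPKM against 1.09 to 1.36), Ndfip1 (0.846, 544 FPKM against 613 to 625) and Snora74a (0.962, 40.0 FPKM against values from 0 to 1.51). In β-cat cOEs, replicate 4 was apart for Snora74a (1.0, 58.9 FPKM against 0 in the other 3) and replicate 2 for Ube2d2 (0.915, 102 FPKM against 93.4 to 94.2). Among controls, replicate 1 was apart for Ube2d2 (0.850, 95.5 FPKM against 91.6 to 92.2) and replicate 4 for Ndufa2 (0.947, 129 FPKM against 188 to 191). Control replicate 1 and APC cKO replicate 1 are the 2 female libraries.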

How the results depend on the processing

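The count of flanking genes called was 0 in 5 of the 6 comparisons under every alternative run. Between APC-deleted and APC-intact libraries it was 0, became 1 with a pseudocount of 1, and ranged from 0 to 2 when 1 library was left out (2 without control replicate 1, 1 without β-cat cOE replicate 3). The genes were Gm10548 in all 3 settings and Ercc3 without control replicate 1; the cause was not tested. Gm10548 reached 0.5 FPKM only through the APC-deleted libraries. Of the 48 genes named for this comparison, 38 kept their sign in all alternatives. With the replicate block the log2 difference was −0.0043 for Hdac3, 0.0029 for Mapre2 and −0.14 for Ttr, against 0.01, −0.0005 and 0.29 without it, and with quantile scaling it was −0.0011 for Pkd2l2, against 0.0079. Leaving out 1 library, the range was −0.0186 to 0.0356 for Ap3s1, −0.0057 to 0.0274 for Hdac3, −0.0174 to 0.0153 for Hspa9, −0.0146 to 0.0159 for Mapre2, −0.0191 to 0.0271 for Pkd2l2, −0.0403 to 0.0021 for Ppp2r2b, −0.0279 to 0.0091 for Reep5, −1.78 to 0.28 for Snora74a, −0.0047 to 0.0399 for Srp19 and −0.061 to 0.556 for Ttr. Deviations of libraries with the same title number correlated at −0.22 to 0.32, and at 0.11 to 0.32, each over 0.1, only between β-cat cOE and APC cKO libraries. Libraries of these 2 groups with different numbers correlated at −0.28 to 0.17. The replicate block changed no call among the flanking genes. In that fit APC cKO replicate 4, the only library with title number 5, is alone in its block and adds nothing to the comparisons. Over all genes tested the block took the count of calls from 6 to 1 between APC cKO and β-cat cOE libraries and from 54 to 7 between APC-deleted and APC-intact ones. The latter count was 143 without control replicate 1 and 16 without control replicate 3. Without counts, depth cannot be set against the precision of low genes such as Gm10548.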
